A study of Rattus norvegicus with 8 samples.

Results

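Skeletal muscle transcripts in rat paw skin were followed through 4 genes, which were Acta1 (ENSRNOG00000017786), Ckm (ENSRNOG00000016837), Mb (ENSRNOG00000004583) and Des (ENSRNOG00000019810). They were chosen by gene identifier and made up 4 of the 26404 genes in the count table, and all of them were present in it. The count table lists identifiers alone, so the symbols are those supplied with the list of identifiers and were not checked against an annotation. RNA was sequenced after poly(A) enrichment from skin of the dorsal side of the hind paw, in 4 burn and 4 control libraries from Sprague-Dawley rats of 125 to 200 g. In the burn group 1 hind paw was dipped to the ankle for 2 min in 60 °C saline under urethane anaesthesia, a model of deep partial-thickness burn. The control group was the opposite paw, dipped at the same time in room temperature saline. Skin was cut out around the microdialysis probes, and the labels give neither the depth of each excision nor the animal behind each library, so p-values describe the spread between these 8 samples.

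Striated muscle contracts by sliding actin thin filaments past myosin, and a muscle fibre holds these proteins and the enzymes that fuel them in great abundance. Acta1 encodes the alpha-actin of skeletal muscle thin filaments. Ckm encodes the muscle creatine kinase, which buffers ATP in skeletal muscle and heart, and Mb encodes myoglobin, the oxygen-binding haem protein of the same tissues. Des encodes desmin, the intermediate filament protein that links neighbouring contractile units, and it is made in smooth muscle as well, such as that of blood vessel walls. Skeletal muscle fibres are not part of the epidermis or dermis and lie beneath them.

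The sequences before the start of the 4 genes are shown because muscle genes are known to be read through short shared motifs there. They are the 250 bases before each gene's start, 5′ to 3′ on the gene's strand, from RefSeq on build GRCr8, which is not the build of the counts (Rnor_5.0). The windows are chr19:68784195-68784444 on the minus strand for Acta1, chr1:88189211-88189460 on the plus strand for Ckm, chr7:110647743-110647992 on the minus strand for Mb and chr9:84299376-84299625 on the plus strand for Des. Capitals mark matches to the E-box CANNTG, the motif of myogenic helix-loop-helix factors, and to the CArG box, the motif of serum response factor.
Acta1: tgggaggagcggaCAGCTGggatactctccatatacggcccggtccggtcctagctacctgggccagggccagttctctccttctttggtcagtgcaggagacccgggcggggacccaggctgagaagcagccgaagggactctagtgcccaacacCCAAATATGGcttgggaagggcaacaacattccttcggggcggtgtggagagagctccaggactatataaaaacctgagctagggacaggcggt
Ckm: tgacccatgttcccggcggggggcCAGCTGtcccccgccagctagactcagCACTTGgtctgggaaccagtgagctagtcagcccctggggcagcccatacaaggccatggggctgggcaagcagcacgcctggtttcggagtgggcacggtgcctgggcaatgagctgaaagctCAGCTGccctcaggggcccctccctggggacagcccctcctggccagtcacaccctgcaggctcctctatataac
Mb: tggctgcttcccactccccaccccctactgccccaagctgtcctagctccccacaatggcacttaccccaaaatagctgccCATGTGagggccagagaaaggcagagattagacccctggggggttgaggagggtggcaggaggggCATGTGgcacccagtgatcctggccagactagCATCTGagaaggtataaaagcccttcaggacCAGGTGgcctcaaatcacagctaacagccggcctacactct
Des: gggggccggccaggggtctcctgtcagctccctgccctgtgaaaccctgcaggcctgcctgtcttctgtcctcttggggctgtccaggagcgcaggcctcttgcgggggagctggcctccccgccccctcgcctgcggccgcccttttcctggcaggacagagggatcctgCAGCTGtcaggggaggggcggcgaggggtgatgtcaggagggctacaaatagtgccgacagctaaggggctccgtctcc

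These motifs read the same on both strands. The window of Mb held 4 E-boxes and that of Ckm held 3, where 11.5% of the 33469 rat promoter windows of the same length held at least 3. The windows of Acta1 and Des held 1 each, and 65.5% of all windows held at least 1. The CArG box had 1 match, in the window of Acta1, and 1.50% of all windows held it. The MEF2 site, the motif of another muscle transcription factor, had 0 matches in the 4 windows and was found in 2.96% of all. The letters of the motifs in a window are a description, and neither binding nor methylation at these places was measured here.

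The libraries held 13693811 to 18738652 counts in burn and 17824830 to 26837925 in control. Levels below are counts per 1000000 counts of the library (CPM), and brackets behind them are exact 95% Clopper-Pearson intervals, which cover counting error only. Burn replicate 3 had counts in 15354 genes, where each other library had them in 17322 to 17547. It also had the least Des of the 8, and results that rest on it are given with and without it. Control replicate 4 stood apart from every other library in the muscle transcripts, and was treated the same way.

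The 4 transcripts did not behave as a single set. Acta1, Ckm and Mb were abundant in control replicate 4 and close to 0 in the other 7 libraries, burned or not. Des was present in every library, was highest in control replicate 4 and was lower in all 4 burn libraries than in all 4 control libraries. After the adjustment for all genes tested, edgeR called neither of the 2 members that could be tested. The plot of levels by library shows both patterns.

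**Figure D1:**
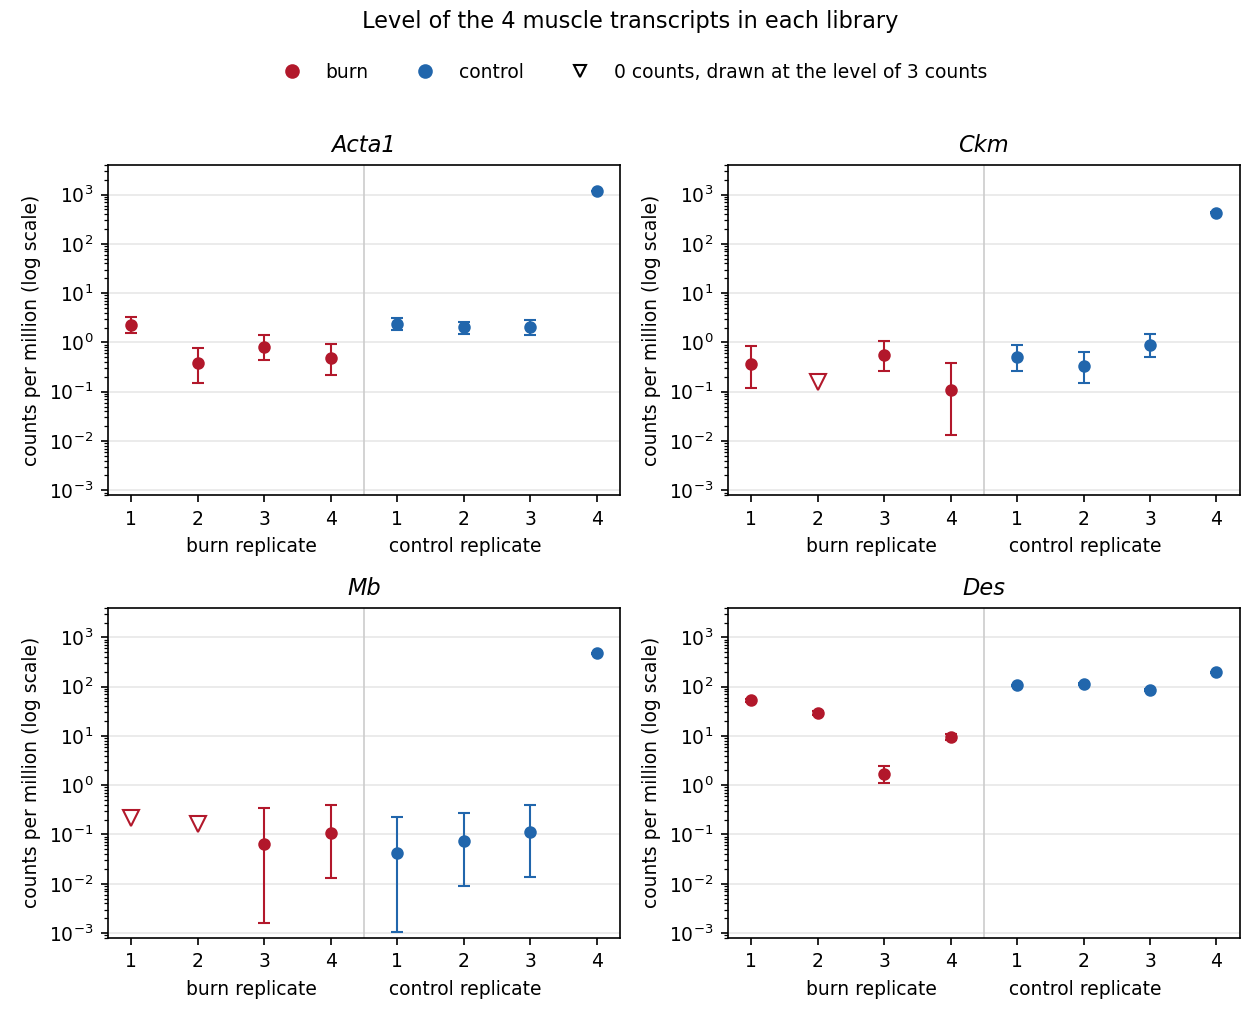
Level of each of the 4 transcripts in CPM on a log axis, with 1 point for each library, burn in red and control in blue, exact 95% intervals and open triangles at the level of 3 counts for libraries with 0 counts. Control replicate 4 reaches 1190 CPM of Acta1, 427 CPM of Ckm and 478 CPM of Mb, where no other library exceeds 2.37, 0.898 and 0.112 CPM.

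Acta1, the thin filament actin, had 31, 7, 13 and 9 counts in burn replicates 1 to 4, against 57, 54, 36 and 31804 in control replicates 1 to 4. These were 2.26, 0.374, 0.817 and 0.484 CPM in burn, against 2.37, 2.01, 2.02 and 1190 CPM in control. The groups overlapped, since burn replicate 1 lay above control replicates 2 and 3. The highest control library stood 502-fold above the next, control replicate 1 (counting interval 387 to 663). Acta1 was the 53rd most counted gene of control replicate 4 and no higher than rank 11857 in any other library. Its coding sequence is nearly that of the smooth muscle, cardiac and non-muscle actins, so at 7 to 57 counts its reads are uncertain, and any that belong to those genes could not be told apart.

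Ckm, the creatine kinase, had 5, 0, 9 and 2 counts in burn replicates 1 to 4, against 12, 9, 16 and 11403 in control replicates 1 to 4. Its level was 427 CPM (419 to 435) in control replicate 4 and 0.898 CPM (0.513 to 1.46) in control replicate 3, the next highest, a ratio of 475 (counting interval 293 to 832). Burn replicate 2 had 0 counts, which allows up to 0.160 CPM at 3 counts, and was at least 2665-fold lower than control replicate 4. The burn libraries overlapped control replicates 1 to 3, with 0 to 0.566 CPM in burn and 0.335 to 0.898 CPM in those 3 controls.

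Mb, myoglobin, had 0, 0, 1 and 2 counts in burn replicates 1 to 4, against 1, 2, 2 and 12769 in control replicates 1 to 4. It was thus at or under 2 counts in 7 of 8 libraries, below the 3 counts that 0 allows, and no difference between burn and control replicates 1 to 3 could be read at this depth. Control replicate 4 held 478 CPM (470 to 486), which was 4259 times the level of control replicate 3, with a counting interval of 1179 to 35168 on those 2 counts. Of the 4 transcripts Mb had the largest ratio between that library and the next.

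Des, desmin, had 721, 543, 27 and 180 counts in burn replicates 1 to 4, against 2556, 3042, 1527 and 5272 in control replicates 1 to 4. These were 52.7, 29.0, 1.70 and 9.68 CPM in burn, against 106, 113, 85.7 and 197 CPM in control. The groups did not overlap, and the highest burn library lay below the lowest control library. Des averaged 23.3 ± 22.7 CPM in burn and 126 ± 49.2 CPM in control (SD, n = 4 each; p = 0.0286 in a two-sided exact permutation test, the lowest p of 4 against 4 libraries). All 4 burn libraries lay below all 4 controls on the log2 CPM scale for 15.6% of the 14240 genes tested, so the order of the Des values is shared with many genes. In bulk tissue, fewer cells of a type and less RNA per cell cannot be told apart.

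Without control replicate 4 the controls averaged 102 ± 14.4 CPM of Des (SD, n = 3). Without burn replicate 3 the burn libraries averaged 30.4 ± 21.5 CPM (SD, n = 3), and all of them still lay below every control. Summed over libraries, Des in burn was 0.212 of its level in control replicates 1 to 3, and 0.273 when burn replicate 3 was left out as well. These ratios use library totals without TMM scaling. The scaled edgeR fit without both libraries gave a smaller drop, at -1.38 log2 units. On the log2 CPM scale the SD of Des was 2.38 in burn and 0.56 in control (n = 4 each), or 1.29 in burn without burn replicate 3 and 0.26 in control without control replicate 4 (n = 3 each). On the CPM scale the SD of control was the larger with all libraries, as given above. Without burn replicate 3 and control replicate 4 the SD of burn was the larger there too, at 21.5 against 14.4 CPM.

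Burn replicate 3, looked at alone, stood low in Des. Its log2 CPM of Des was 0.60, and the median of the other 3 burn libraries was 5.17, a difference of -4.57. Among the 14240 genes tested 112, or 0.787%, were at least as far below those 3 libraries in burn replicate 3. Acta1 was 0.29 log2 units above the median of the other 3 in the same library, and Ckm at 9 counts had its highest burn value there. Over the burn libraries Acta1 had 7 to 31 counts, Ckm 0 to 9 and Mb 0 to 2. On 13 counts of Acta1 and 9 of Ckm in burn replicate 3, neither showed a fall like that of Des. At the counts of Mb such a fall could not show. Why Des was low in this library was not tested.

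Control replicate 4, looked at alone, held the 3 muscle-restricted transcripts at levels far above those of its group. Acta1 stood 9.18 log2 units above the median of the other 3 controls, Ckm 9.50 and Mb 11.43, and Des 0.92. At least as high a difference as that of Acta1 was found for 2 of the 14240 genes tested, Acta1 included, and at least as high a difference as that of Des for 689, or 4.84%. Those genes had passed a filter on low counts, which removed Ckm and Mb. Of 111 other genes that stood out in this library, described below, it kept 24, so the place of Acta1 holds among the genes tested only. The Des level in control replicate 4 was 1.94 times the mean of the other 3 controls, a surplus of 95.5 CPM.

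As a share of all counts, the 4 transcripts together took 0.00553%, 0.00294%, 0.000314% and 0.00104% of burn replicates 1 to 4, against 0.0109%, 0.0116%, 0.00887% and 0.229% of control replicates 1 to 4. The share of control replicate 4 (0.227% to 0.231%) was far above the others, and the remaining controls lay above every burn library. Their mean share was 0.00245% ± 0.00233 in burn and 0.0651% ± 0.109 in control (SD, n = 4 each), or 0.0105% ± 0.00141 in control replicates 1 to 3 (SD, n = 3). No library of pure muscle was at hand, so a share of counts cannot be turned into a share of tissue.

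Des made up most of that sum everywhere except in control replicate 4. It gave 95.2%, 98.7%, 54.0% and 93.3% of the counts of the 4 transcripts in burn replicates 1 to 4, against 97.3%, 97.9%, 96.6% and 8.61% in control replicates 1 to 4. Acta1, Ckm and Mb without Des took 3.74e-05% to 0.000263% of the burn libraries and 0.000242% to 0.000303% of control replicates 1 to 3, against 0.209% of control replicate 4. By these 3 transcripts, the other 7 libraries held little skeletal muscle RNA. As a share of all counts, burn replicate 1 was within the range of control replicates 1 to 3. With TMM-scaled library sizes it lay above them, at 0.000313% against 0.000225% to 0.000273%.

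**Figure D2:**
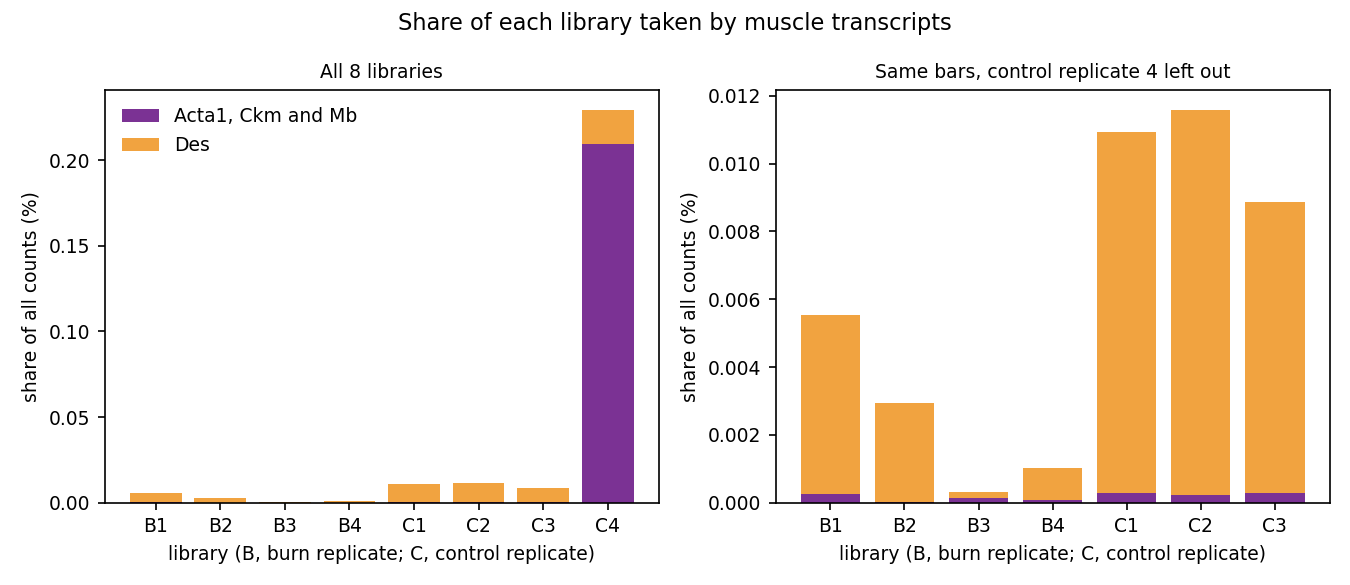
Share of all counts in percent taken by Acta1, Ckm and Mb together (purple) and by Des (orange), with B for burn and C for control replicates, in all 8 libraries on the left and without control replicate 4 on the right, where the axis is shorter. Control replicate 4 reaches 0.229% and is mostly purple, and the other 7 bars stay at or below 0.0116% and are mostly orange, least so in burn replicate 3.

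The ratio of Des to Acta1 counts within a library does not depend on depth or scaling. It was 23.3, 77.6, 2.08 and 20.0 in burn replicates 1 to 4, against 44.8, 56.3, 42.4 and 0.166 in control replicates 1 to 4. Control replicates 1 to 3 were close to one another, and control replicate 4 lay far below them. The mean log2 ratio was 4.05 ± 2.18 in burn and 3.53 ± 4.09 in control (SD, n = 4 each), a difference of 0.52 that was within the spread between libraries (two-sided exact permutation test, p = 0.914). Without control replicate 4 the difference was -1.52 (exact permutation p = 0.229). The other 5 of the 6 possible pairs of members had a library with 0 counts, and no ratio was tested for them.

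Outside control replicate 4, the lower Des values of burn stood beside 7 to 31 counts of Acta1, 0 to 9 of Ckm and 0 to 2 of Mb in the burn libraries, and 36 to 57, 9 to 16 and 1 to 2 counts in control replicates 1 to 3. The part of skeletal muscle RNA in the Des difference was not tested.

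**Figure D3:**
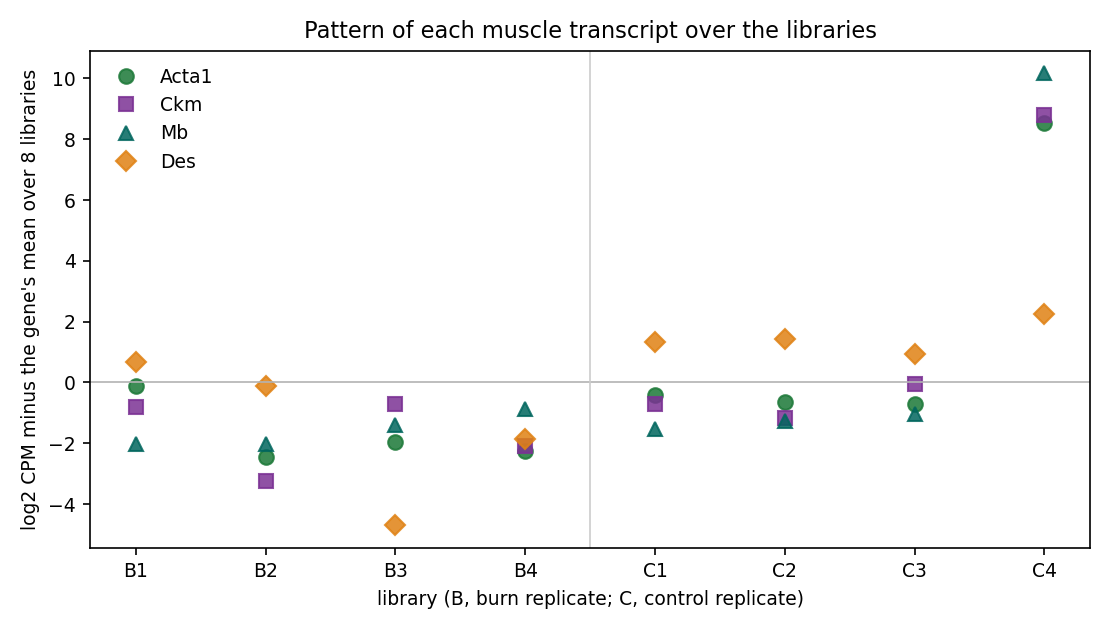
Log2 CPM of each transcript minus its own mean over the 8 libraries, with B for burn and C for control replicates, 1 symbol per gene. Acta1, Ckm and Mb lie 8.54 to 10.2 log2 units above their means in control replicate 4, and Des departs most in burn replicate 3, at -4.70.

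The comparison of burn with control asked how muscle transcripts stood in scalded skin. Of the 4 members 2 passed the filter on low counts, Acta1 and Des. Ckm and Mb did not, because too few libraries reached the minimum level. The edgeR quasi-likelihood test called 0 of those 2 at an adjusted p of 0.05, where it called 21.9% of the 14240 genes in either direction. At an unadjusted p under 0.05 both were lower, and so were 17.4% of all genes.

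For Acta1 burn over control was fitted at -8.09 log2 units (SE 2.54, edgeR adjusted p = 0.0508). No gene tested had a lower value, and 1 library set it. Without control replicate 4 the fold change was -0.87 (SE 0.68, edgeR adjusted p = 0.421), and without burn replicate 3 as well it was -0.72 (edgeR adjusted p = 0.482). The limma-voom fit, which works on the log value of each library, gave -3.69 (SE 3.83, adjusted p = 0.509). With all libraries Acta1 passed the threshold with library size alone as the scaling and with edgeR without robust estimation, settings that called 15.0% and 10.1% of all genes lower in burn. On library totals without TMM scaling, the summed level of Acta1 in burn was 0.419 of that in control replicates 1 to 3. This ratio rests on 60 and 147 counts (counting interval 0.305 to 0.569).

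For Des the same fit gave -2.09 log2 units (SE 0.87, edgeR adjusted p = 0.115), with all 4 burn libraries below all 4 controls. A value at least as low was fitted for 238 genes, or 1.67% of those tested. The estimate was -1.76 without control replicate 4 (edgeR adjusted p = 0.240), -1.69 without burn replicate 3 (edgeR adjusted p = 0.0576) and -1.38 without either (edgeR adjusted p = 0.122). Other tests put Des past the threshold, with an adjusted p of 0.0296 by the DESeq2 Wald test, 0.0379 by limma-voom and 0.0153 by limma-voom with sample quality weights. These tests called 15.5%, 11.7% and 15.0% of all genes lower in burn. The call for Des therefore depended on the test used, and its direction was lower in burn in each test run.

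**Figure D4:**
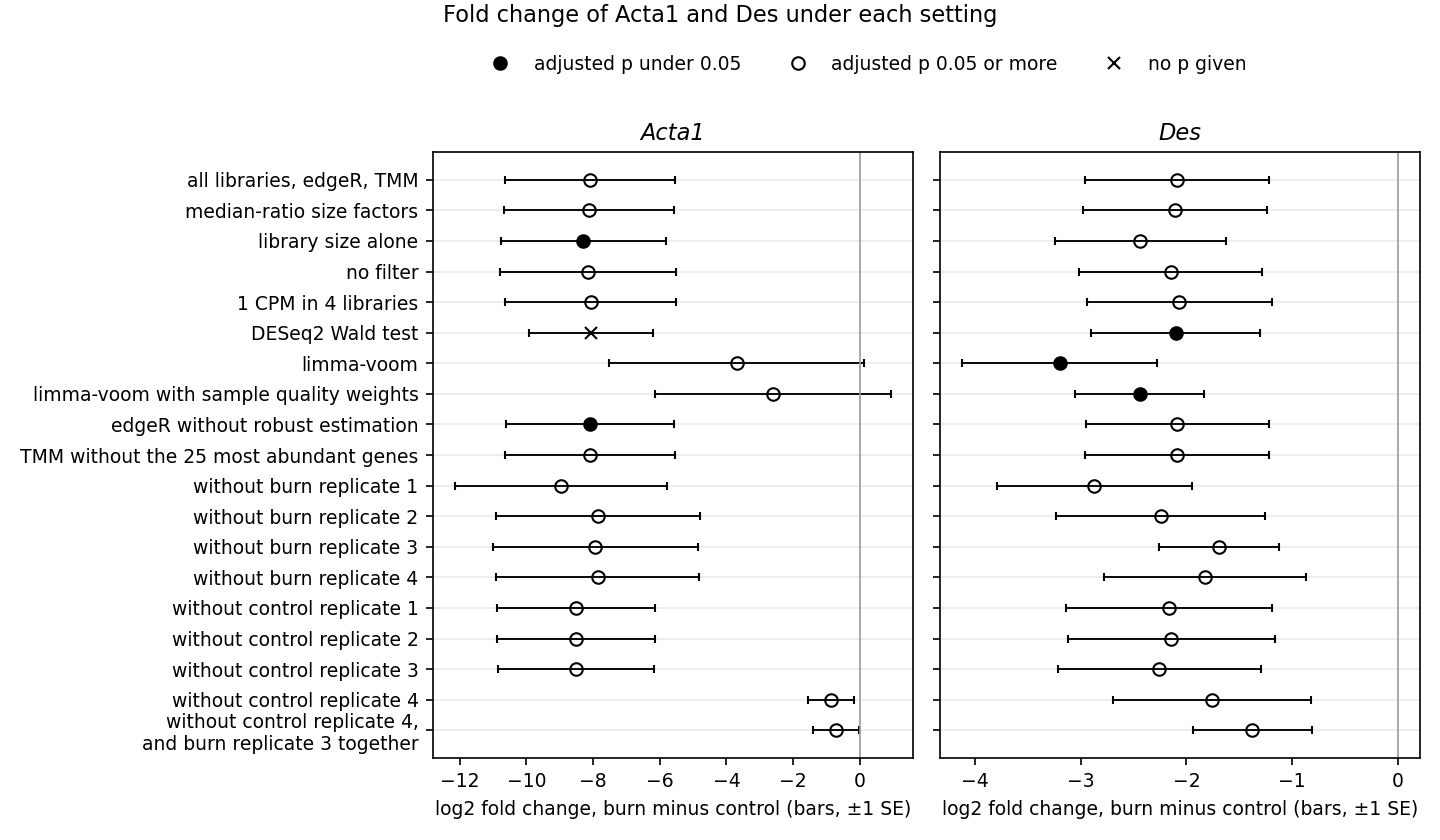
Log2 fold change of burn over control for Acta1 (left) and Des (right) under each of the 19 settings, with 1 SE to either side, filled symbols for an adjusted p under 0.05, open ones for the rest and a cross where DESeq2 gave no p. Acta1 moves from -8.09 to -0.87 when control replicate 4 is left out, whereas Des stays between -3.20 and -1.38.

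Ckm and Mb entered a fit when no filter was applied. Ckm was then fitted at -8.67 log2 units (SE 2.86, edgeR adjusted p = 0.0834) and Mb at -11.10 (SE 3.74, edgeR adjusted p = 0.0885), with 6.77% of 20370 genes called lower in burn. Both estimates rest on control replicate 4, which held 11403 of the 11440 control counts of Ckm and 12769 of the 12774 of Mb. Without that library neither passed the filter. With that library kept and 1 of 5 others left out, Ckm passed the filter at an edgeR adjusted p of 0.0578 to 0.117.

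Other genes stood out in the same library. In control replicate 4, 114 genes with at least 10 counts exceeded the highest other control more than 16-fold, and Acta1, Ckm and Mb were among them, but not Des. By the same rule within each group, 6, 6, 22 and 3 genes stood out in burn replicates 1 to 4, against 1, 2 and 2 in control replicates 1 to 3, and no member was among those genes. The 114 genes took 0.981% of the counts of control replicate 4, of which Acta1 gave 12.1%, Mb 4.87% and Ckm 4.35%. By counts Acta1 ranked 2nd among them, Mb 5th and Ckm 7th.

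The other 111 of these genes were also scarce in the burn libraries, which the rule for control replicate 4 did not use. They took 0.00617% to 0.00763% of the burn libraries and 0.00412% to 0.00444% of control replicates 1 to 3, against 0.772% of control replicate 4. Their median count was 0 to 2 in the other 7 libraries and 390 in control replicate 4. Since they were picked as high in that library against control replicates 1 to 3, the values of the controls are a description. The rule held down those controls and not burn, so their shares cannot be compared with those of burn. These genes have no symbol in the files, and the markers of other muscle and skin cell types were not analysed here.

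The genes most like the members were sought by the root mean square difference of log2 CPM over the 8 libraries, after each gene's mean was taken off. Only genes that passed the filter on low counts were compared, among them 24 of the 111 genes above. The mean pattern of the 4 members was mostly set by control replicate 4, at 7.44 log2 units, against -2.19 to -0.21 in the other libraries. Over 14238 genes the median difference from that mean pattern was 2.94 log2 units, and 4 genes lay within 1. The closest was ENSRNOG00000022790, at 0.81, with 10, 12, 2 and 7 counts in burn replicates 1 to 4, against 13, 23, 23 and 2240 in control replicates 1 to 4. Next came ENSRNOG00000020557, at 0.86, with 11, 15, 16 and 6 counts in burn, against 29, 22, 31 and 3127 in control. Among the members themselves the difference was 0.53 for Acta1, 0.91 for Ckm, 1.32 for Mb and 2.38 for Des. Des was thus the member least like the mean pattern. Each member is part of that mean, so the members' differences are a description and cannot be set beside those of other genes.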

How the data were processed

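The deposited values are read counts per Ensembl rat gene, whole numbers without normalisation, 1 column per library. Per the submitters' processing notes, the build was Rnor_5.0 and the tools named were limma, edgeR, R 3.0.1, TopHat2 2.0.9 and HTSeq 0.5.4p3. Their roles, the annotation release and the strand setting are not stated there. The reference table of 47357 rat genes carried 0 Ensembl rat identifiers. Groups came from the treatment label, and replicates were numbered in accession order. The members and lists were chosen with earlier results of these data known. Beside the members, the 2 genes of most similar pattern were named, and genes over 16-fold above the rest of a group were counted. The minimum of 10 counts there was added after the data were seen.

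All genes were tested with edgeR 4.0.16 in R 4.3.3 (robust quasi-likelihood test, TMM scaling, default expression filter, group as the only term, 14240 genes), two-sided, with Benjamini-Hochberg adjustment over all genes. For edgeR the standard error is the size of the fold change divided by the root of the F statistic. For limma it comes from the moderated variance, and for DESeq2 it is the one that DESeq2 reports. Log2 CPM used a prior count of 2. DESeq2 1.42.0 and limma 3.58.1 served as alternatives. The procedure was tested on simulated data.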

Additional observations from a re-analysis of the deposited data

Results flagged for a closer look

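In 12 screens for a library set apart from the rest of its group, 5 picked one, each time control replicate 4. Chance picks about 1 in 20 of separate screens, and these share genes and a library. Control replicate 4 and burn replicate 3 had been marked beforehand to be looked at alone, so the 5 picks are a description. The values were 1190 CPM of Acta1, 427 CPM of Ckm, 478 CPM of Mb, a summed share of 0.229% for the 4 members and a log2 ratio of Des to Acta1 of -2.59. The Des level of that library, 197 CPM, was not picked. No screen picked a burn library, burn replicate 3 included. The screens of levels and shares ran on CPM and percent, where a low value has little room to stand apart. On the log2 CPM scale Des in burn replicate 3 was -4.57 from the median of the other burn libraries. What set control replicate 4 apart was not tested.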

How the results depend on the processing

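No paired analysis was possible because the labels give no animal and the replicate numbers follow accession order. Acta1 and Des were lower in burn under every setting that gave a value. Acta1 passed the threshold with library size alone (log2 fold change -8.29, adjusted p = 0.0417) and with edgeR without robust estimation (-8.09, adjusted p = 0.0491), and stayed short of it in 15 other settings. DESeq2 gave no p for it. Des passed it by the DESeq2 Wald test (-2.10), limma-voom (-3.20) and limma-voom with sample quality weights (-2.44), and not in 15 others. The number of members called was thus 1 under those 5 settings and 0 elsewhere. Leaving out 1 library at a time gave -8.97 to -0.87 for Acta1 and -2.87 to -1.69 for Des, with an edgeR adjusted p of 0.0519 to 0.421 and 0.0576 to 0.240.

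The difference in log2 ratio of Des to Acta1 ran from -1.52 (without control replicate 4) to 1.52, and was -0.22 without burn replicate 2. The mean summed share was 0.00143% to 0.00317% in burn and 0.0105% (without control replicate 4) to 0.0839% in control. With the 25 most abundant genes taken out of the total it was 0.00431% in burn and 0.0892% in control. All genes called higher numbered 894 with library size alone and 673 to 2314 leaving out 1 library, and genes called lower 2203 by DESeq2 and 546 to 1929. The balance with library size alone was 894 higher and 2138 lower, against 1689 and 1426, and it moved the median log2 fold change from 0.06 to -0.15. Removing burn replicate 1 or any control replicate changed each count over 1.5-fold. The cause was not tested. Depth limits Ckm and Mb, which were at 0 to 16 counts outside control replicate 4.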
